A study of Populus trichocarpa with 9 samples.

Results

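The genes described here are 105 of the 41335 Populus trichocarpa genes in the deposited RNA-seq table, those whose values were at most about 0.5 of the control after transfection of protoplasts with PtrHSFB3-1 and stayed above about 0.75 of it after transfection with PtrMYB092. A member can thus still be somewhat lower than the control with PtrMYB092. They were chosen from the measured values themselves. Each value was divided by a scaling factor of its library, and a gene's ratio was the mean, on the log2 scale, of the 3 ratios of (transcription factor value + 1) to (GFP value + 1) between libraries of the same replicate number. Members had a PtrHSFB3-1/GFP ratio of at most 0.5, each of its 3 paired ratios under 0.8, a PtrMYB092/GFP ratio over 0.75 and a mean scaled GFP value of at least 10. Of 6525 genes at that GFP minimum, 244 met the limit on the PtrHSFB3-1/GFP ratio, 215 of them also met the limit on the paired ratios, and 105 (1.61% of the 6525) met the limit on the PtrMYB092/GFP ratio. The other 110 had PtrMYB092/GFP ratios of 0.75 or under. The rule also left out the monolignol genes of the study's primer list and a stretch of chromosome 4, which removed 0 genes that had met the limits.

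Stem-differentiating xylem (SDX) is the tissue of a stem in which young wood cells build their secondary walls, and SDX protoplasts are its cells after the walls have been digested away. In the study, protoplasts from SDX of 6-month-old trees received a gene by PEG-mediated transfection and were collected after 12 h. There were 3 libraries with PtrHSFB3-1, 3 with PtrMYB092 and 3 with GFP, the green fluorescent protein used as the control, so all 9 libraries came from protoplasts that had been transfected. Only the construct differs between the groups in the labels, and the study calls the libraries biological replicates; the labels do not say whether they came from separate trees, so the errors given here measure the spread between these libraries.

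Heat shock factors are transcription factors that bind heat shock elements in promoters. Class B factors, to which PtrHSFB3-1 belongs by its name, lack the activator motif of class A, and in Arabidopsis several of them lower the transcription of their targets. MYB transcription factors include regulators of the monolignol pathway, which makes the building blocks of lignin. Both transcription factors were tested in the study as regulators of cell wall genes in tension wood. The study reported both as direct activators of monolignol genes, and more genes raised than lowered in protoplasts with either factor.

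The table gives locus names without gene names or functions, and none of the locus names could be matched to an annotation used here. No function is therefore given to any member. The chromosome is read from the locus name, and no sequence is shown.

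The labels were checked first with the transfected genes. PtrHSFB3-1 (Potri.006G049200) had deposited values of 19859, 31149 and 42965 in the PtrHSFB3-1 libraries, 119, 105 and 165 in the PtrMYB092 libraries and 67, 53 and 61 in the GFP libraries. PtrMYB092 (Potri.001G118800) had 6, 6 and 4 in the PtrHSFB3-1 libraries, 6922, 11036 and 17727 in the PtrMYB092 libraries and 4, 5 and 4 in the GFP libraries. Each of the 6 transcription factor libraries thus held the transcript its title names, and the transcript of GFP was not looked at, although the description label of PtrMYB092 replicates 2 and 3 names the other factor. The transcript of PtrHSFB3-1 was also higher in every PtrMYB092 library than in every GFP library, with a ratio of 2.23. The libraries summed to between 428358 and 495579. As a check of the tissue, 21 of 22 monolignol genes were above 0 in all 3 GFP libraries, and 16 of them reached the GFP minimum. The 5 secondary wall cellulose synthase genes of the primer list had values of at most 2 in any library. Of their 45 values 22 were above 0, and only PtCesA8 was above 0 in all 3 GFP libraries, at 1, 2 and 1. The cellulose synthase genes were thus near 0 in protoplasts of a wall-building tissue, so this check did not settle the tissue. In bulk RNA, fewer cells of a type and less RNA per cell cannot be told apart.

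**Figure D1:**
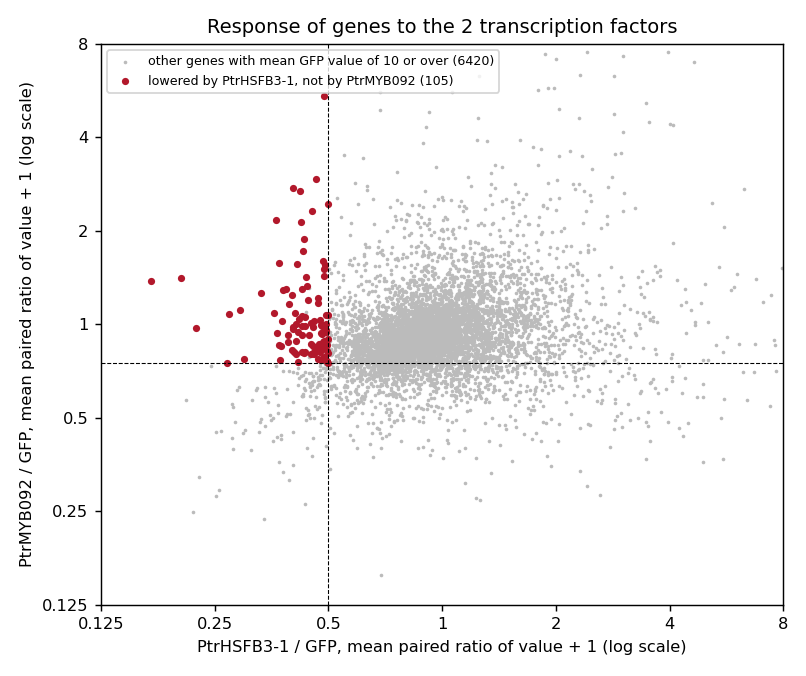
Each point is a gene with a mean scaled GFP value of at least 10, with its PtrHSFB3-1/GFP ratio on the x axis and its PtrMYB092/GFP ratio on the y axis, both on log scales, and dashed lines at the limits of 0.5 and 0.75. The 105 members (red) run from 0.169 to 0.4996 on the x axis and from 0.751 to 5.46 on the y axis and the other genes are grey. Genes with ratios beyond the axes are not shown.

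As a group, the members were lowered to somewhat under the limit of the rule and rarely far below it. The PtrHSFB3-1/GFP ratio had a median of 0.449 over the 105 members, against 0.916 over the 6525 genes, and ran from 0.169 to 0.4996. It lay between 0.45 and 0.5 in 50 members and between 0.4 and 0.45 in 32, while 23 members had ratios of 0.4 or under and 7 of these 0.3 or under. The limit cuts through a continuous range: the 3 members just inside it had ratios of 0.4996, 0.4993 and 0.497, and the 3 genes just outside it that met the other limits had 0.5004, 0.5008 and 0.5008. At the limit on the PtrMYB092/GFP ratio, the 3 members just inside had 0.751, 0.753 and 0.757 and the 3 genes just outside 0.744, 0.733 and 0.733. Mean GFP values next to the minimum were 10.2, 10.6 and 10.7 inside and 9.64, 9.61 and 9.15 outside. These values chose the members and are given as a description.

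Summed over the 105 members, the scaled values were 4868, 4490 and 3254 in the PtrHSFB3-1 libraries, 9111, 9840 and 11444 in the PtrMYB092 libraries and 8490, 9337 and 11188 in the GFP libraries. The PtrHSFB3-1 libraries were low and the other 6 overlapped. As a share of all deposited values of a library, the members took 0.826%, 1.03% and 0.672% with PtrHSFB3-1, 2.00%, 2.46% and 2.45% with PtrMYB092 and 1.88%, 2.42% and 2.42% with GFP. With either scaling the PtrHSFB3-1 libraries were the 3 lowest, while the order within a construct changed. The low sums with PtrHSFB3-1 follow from the choice of the members and are a description.

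**Figure D2:**
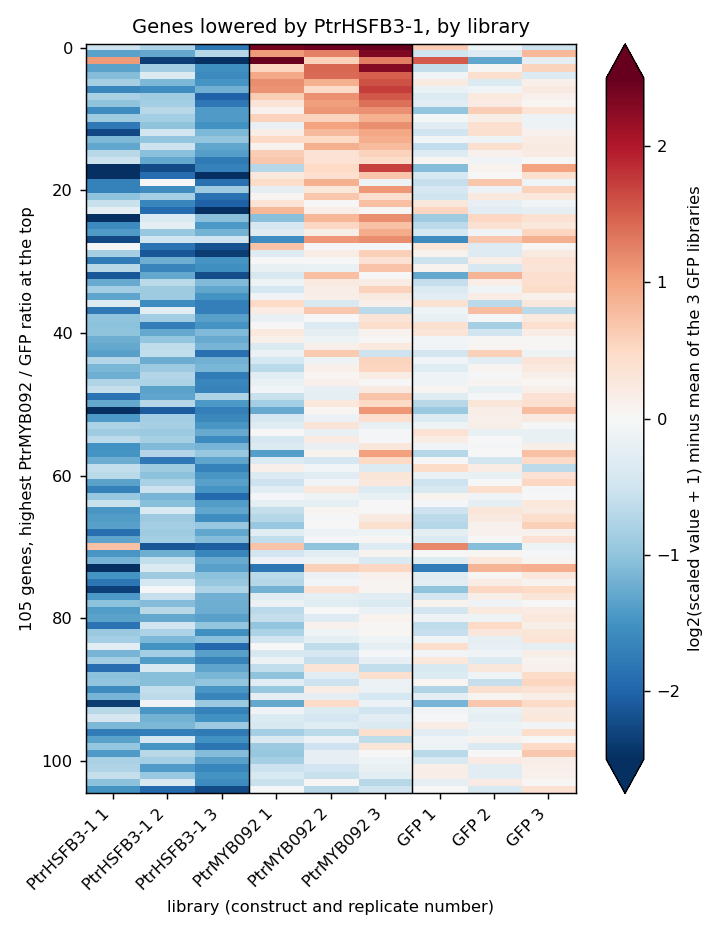
Rows are the 105 members, sorted by their PtrMYB092/GFP ratio with the highest at the top, and columns are the 9 libraries by construct and replicate number. The colour is log2(scaled value + 1) minus the mean of the 3 GFP libraries, blue for lower and red for higher. The PtrHSFB3-1 columns are blue in nearly all rows. The PtrMYB092 columns are mostly red in the top rows, in which 15 members have PtrMYB092/GFP ratios over 1.5. Below these rows their colour varies by library and is blue in some cells.

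Differences were fitted with limma on log2(scaled value + 1) over 7511 genes, with all 9 libraries in 1 fit, and a gene was called at a Benjamini-Hochberg adjusted p under 0.05, as higher above a fold change of 2 and as lower below 0.8, which are the cut-offs the study used. All 105 members passed the filter on low values. In PtrHSFB3-1 against GFP, 4.03% of all genes tested were called lower, and 61 of the 105 members were. With the replicate number as a block, the share of all genes was 21.3% and 105 members were called. Because this contrast chose the members, nothing is read from these counts. The members' log2 differences (PtrHSFB3-1 minus GFP) had a median of −1.16, and their standard errors ranged from 0.14 to 1.06 without the block and from 0.11 to 0.39 with it. Without a block, 84 members had every PtrHSFB3-1 library below every GFP library, which 21.8% of the 6525 genes also did, so the values of the groups overlapped in the other 21 members in spite of paired ratios that were all under 0.8.

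Among the members lowered most, 3 had ratios of 0.25 or under. They are Potri.002G155400, Potri.006G044200 and Potri.008G057600, the last pair named after their values were seen. Potri.002G155400, on chromosome 2, had scaled values of 3.57, 8.66 and 4.09 in the PtrHSFB3-1 libraries, 42.3, 46.8 and 57.4 in the PtrMYB092 libraries and 26.3, 34.9 and 46.3 in the GFP libraries. All PtrHSFB3-1 libraries were far below the other 6, and the PtrMYB092 libraries overlapped with GFP. Its log2 difference was −2.56 ± 0.31 (SE, n = 3 each) for PtrHSFB3-1 minus GFP and 0.46 ± 0.31 for PtrMYB092 minus GFP.

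Potri.006G044200, on chromosome 6, had scaled values of 8.32, 14.4 and 21.5 in the PtrHSFB3-1 libraries, 43.4, 101 and 235 in the PtrMYB092 libraries and 33.1, 76.1 and 144 in the GFP libraries. Potri.008G057600, on chromosome 8, had 4.76, 7.69 and 10.2 with PtrHSFB3-1, 14.5, 37.4 and 77.3 with PtrMYB092 and 18.5, 40.3 and 61.8 with GFP. In both genes replicate 1 was the lowest and replicate 3 the highest with every construct, and every PtrHSFB3-1 library was still below every GFP library. Their log2 differences for PtrHSFB3-1 minus GFP were −2.29 ± 0.68 and −2.16 ± 0.61 (SE, n = 3 each), and with the replicate number as a block the standard errors were 0.20 and 0.22 and both were called, which they were not without it.

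The gene before Potri.002G155400 in the locus numbering was also a member. Potri.002G155300 had scaled values of 44.0, 17.3 and 14.3 in the PtrHSFB3-1 libraries, 63.0, 89.8 and 120 in the PtrMYB092 libraries and 83.7, 62.7 and 92.7 in the GFP libraries, with no overlap between PtrHSFB3-1 and GFP and a log2 difference of −1.77 ± 0.41 (SE, n = 3 each). The locus after the pair, Potri.002G155500, was under the GFP minimum and so no member, and had deposited values of 1, 3 and 1 with PtrHSFB3-1, 11, 12 and 18 with PtrMYB092 and 6, 8 and 11 with GFP. Its ratios were 0.298 for PtrHSFB3-1/GFP and 1.66 for PtrMYB092/GFP. The locus before the pair, Potri.002G155200, had a PtrHSFB3-1/GFP ratio of 0.732. These neighbours were looked at after their values were seen, and reads shared between similar neighbouring genes could not be checked.

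The second pair of adjacent members lies on chromosome 8 and had PtrHSFB3-1/GFP ratios of 0.492 and 0.434. Potri.008G016800 had scaled values of 22.6, 22.1 and 17.4 in the PtrHSFB3-1 libraries, 43.4, 37.4 and 41.8 in the PtrMYB092 libraries and 55.5, 37.6 and 37.7 in the GFP libraries. Potri.008G016900 had 2.38, 8.66 and 4.09 with PtrHSFB3-1, 7.23, 14.97 and 7.31 with PtrMYB092 and 8.76, 14.3 and 12.6 with GFP. Both had every PtrHSFB3-1 library below every GFP library, the second by a small margin. The log2 difference of Potri.008G016900 was −1.20 ± 0.41 (SE, n = 3 each), not called by limma, and was called with the block at a standard error of 0.20. In all, 5 pairs of successive members lay within 10 loci of each other in the numbering, and the 3 that were not adjacent lay 9, 7 and 6 loci apart.

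**Figure D3:**
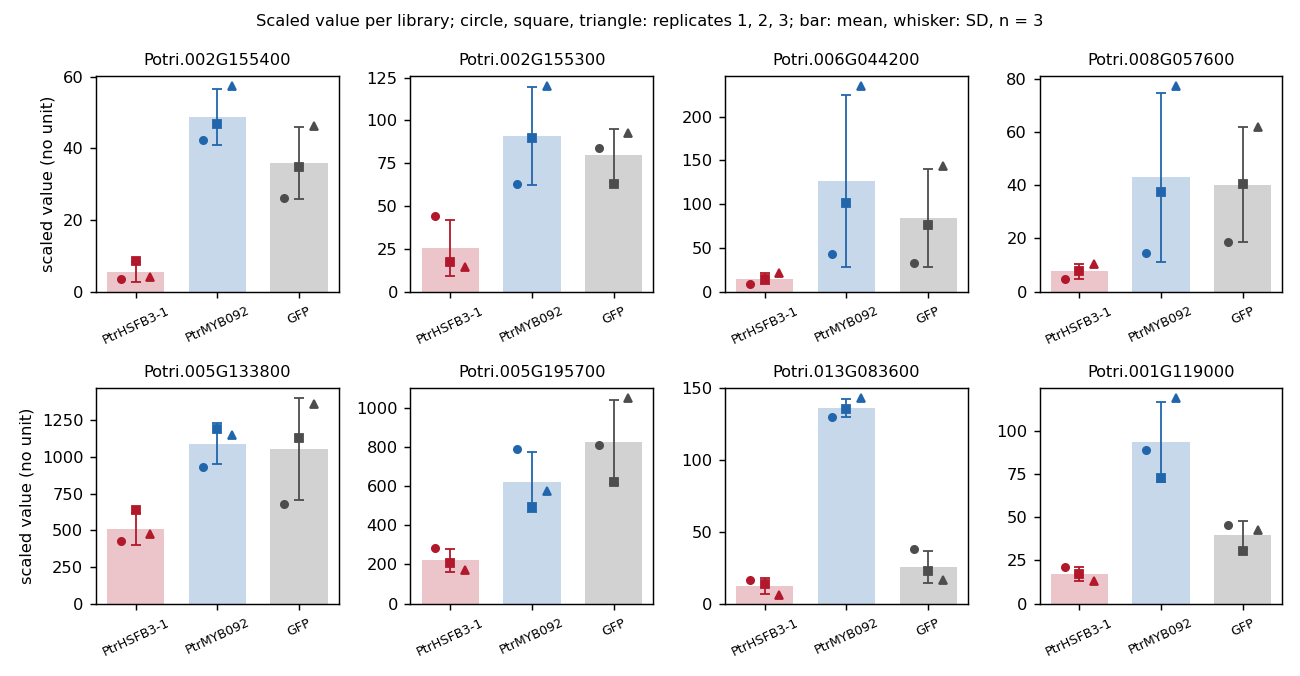
Scaled value (no unit) of 8 members in each library, with PtrHSFB3-1 in red, PtrMYB092 in blue and GFP in grey. Circles, squares and triangles are replicates 1, 2 and 3, bars are means and whiskers are SDs (n = 3); the PtrHSFB3-1 bar is the lowest in every panel, and the PtrMYB092 bar of Potri.013G083600 (136 ± 6.51) is far above its GFP bar (25.6 ± 11.1).

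The members were mostly of low and middle level. Mean scaled GFP values ran from 10.2 to 1054 with a median of 34.4, against a median of 24.2 and a highest value of 11378 over the 6525 genes. They were under 20 in 32 members, between 20 and 50 in 32, between 50 and 100 in 21 and at 100 or over in 20, so 19.0% of members were at 100 or over, against 12.7% of the 6525 genes. The mean PtrHSFB3-1 value had a median of 14.4 and the mean PtrMYB092 value one of 40.9. No member was at 0 in any library.

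The 4 members with mean GFP values of 500 or over are named for their level; apart from Potri.005G133800 and Potri.005G195700 they were named after their values were seen. Potri.005G133800, on chromosome 5, had scaled values of 424, 635 and 471 in the PtrHSFB3-1 libraries, 931, 1187 and 1150 in the PtrMYB092 libraries and 676, 1128 and 1357 in the GFP libraries. It did not overlap between PtrHSFB3-1 and GFP, although the highest PtrHSFB3-1 library came close to the lowest GFP library, and its log2 difference was −1.01 ± 0.30 (SE, n = 3 each), called only with the block at a standard error of 0.19. Potri.005G195700, on the same chromosome, had 286, 209 and 171 with PtrHSFB3-1, 791, 494 and 573 with PtrMYB092 and 811, 620 and 1050 with GFP. All its PtrHSFB3-1 libraries were well below the other 6, with a log2 difference of −1.89 ± 0.30 (SE, n = 3 each), but its PtrMYB092/GFP ratio of 0.751 was the lowest of all members and put it just inside the limit.

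Potri.012G023400, on chromosome 12, had 294, 322 and 229 in the PtrHSFB3-1 libraries, 521, 590 and 733 in the PtrMYB092 libraries and 516, 573 and 695 in the GFP libraries. Its PtrMYB092 and GFP values were nearly alike number by number, and its log2 differences were −1.08 ± 0.23 for PtrHSFB3-1 minus GFP and 0.04 ± 0.23 for PtrMYB092 minus GFP (SE, n = 3 each). Potri.015G007300, on chromosome 15, had 739, 208 and 166 with PtrHSFB3-1, 1234, 732 and 739 with PtrMYB092 and 929, 597 and 762 with GFP. Here PtrHSFB3-1 replicate 1 lay within the range of the GFP libraries and only the other PtrHSFB3-1 libraries were low, with paired ratios of 0.797, 0.349 and 0.219. Its log2 difference of −1.35 ± 0.53 (SE, n = 3 each) was called only with the block, at a standard error of 0.30.

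With PtrMYB092 the members ranged from somewhat below the GFP level to well above it. The PtrMYB092/GFP ratio had a median of 0.969 over the members, against 0.902 over the 6525 genes, with the middle of the members between 0.829 and 1.20 (quartiles). It lay between 0.75 and 0.9 in 41 members, between 0.9 and 1.1 in 34, between 1.1 and 1.5 in 15 and over 1.5 in 15. It was over 1 in 43 members, all 3 paired ratios were under 1 in 38 members, against 45.5% of the 6525 genes, and all 3 were over 1 in 27, against 19.0%. The rule removed every ratio of 0.75 or under, so the median of the members is held up by the rule and is no finding. In PtrMYB092 against GFP, 4.1% of all genes tested were called higher by limma and 0.466% lower, and the members called were 2 higher and 0 lower. Before adjustment, 11 members were higher and 1 was lower at p under 0.05, against 10.4% and 6.67% of all genes tested, so the higher members were at the background share. With the replicate block, 5.72% of all genes were called higher and 9.8% lower, against 8 and 0 members. A lower call is close to what the rule removed, and the higher calls were not fixed by it but come from the same contrast, so they too are a description. Every PtrMYB092 library was above every GFP library in 11 members (10.5%, against 8.08% of the 6525 genes) and below every GFP library in 6 (12.7% of the 6525 genes).

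The 2 members called higher with PtrMYB092 were Potri.013G083600 and Potri.001G119000, named after their values were seen. Potri.013G083600, on chromosome 13, had scaled values of 16.6, 13.5 and 6.14 in the PtrHSFB3-1 libraries, 130, 136 and 143 in the PtrMYB092 libraries and 38.0, 22.4 and 16.4 in the GFP libraries. PtrMYB092 stood far above both other groups, while the highest PtrHSFB3-1 library passed the lowest GFP library by little. Its log2 differences were −1.04 ± 0.37 for PtrHSFB3-1 minus GFP and 2.45 ± 0.37 for PtrMYB092 minus GFP (SE, n = 3 each). With the block the standard error was 0.26 and the lower value with PtrHSFB3-1 was called as well. Its PtrMYB092/GFP ratio of 5.46 was the highest of the members.

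Potri.001G119000, on chromosome 1, had 21.4, 17.3 and 13.3 in the PtrHSFB3-1 libraries, 88.8, 73.0 and 119 in the PtrMYB092 libraries and 45.7, 30.4 and 42.5 in the GFP libraries. The 3 groups did not overlap, with log2 differences of −1.15 ± 0.25 for PtrHSFB3-1 minus GFP and 1.21 ± 0.25 for PtrMYB092 minus GFP (SE, n = 3 each). Its locus number is next but one to that of PtrMYB092 itself. The locus between, Potri.001G118900, had deposited values of 5, 6 and 6 with PtrHSFB3-1, 7, 8 and 7 with PtrMYB092 and 10, 11 and 10 with GFP, and so was not higher with PtrMYB092. The call of Potri.001G119000 was lost without PtrMYB092 replicate 1 or 3, GFP replicate 2 or 3 or PtrHSFB3-1 replicate 2, with only the 6 libraries compared and at an adjusted p under 0.01. Without both PtrMYB092 replicates 2 and 3, neither it nor Potri.013G083600 was called higher.

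With the replicate block, the 8 members called higher with PtrMYB092 were the same 8 genes as those with a PtrMYB092/GFP ratio over 2, which 2.94% of the 6525 genes also had. Of the 6 besides the pair above, Potri.011G059500 and Potri.003G066300 are shown for their different spread. Potri.003G066300, on chromosome 3, had scaled values of 5.94, 8.66 and 5.12 in the PtrHSFB3-1 libraries, 24.8, 46.8 and 85.6 in the PtrMYB092 libraries and 10.7, 17.0 and 25.1 in the GFP libraries. Its PtrMYB092 replicate 1 lay just inside the GFP range. Neither it nor Potri.011G059500 was called lower with PtrHSFB3-1 without the block, and both were with it. Potri.011G059500, on chromosome 11, had 91.5, 7.69 and 6.14 with PtrHSFB3-1, 252, 65.5 and 108 with PtrMYB092 and 128, 17.0 and 36.7 with GFP. Replicate 1 was the highest with every construct, so all 3 groups overlapped, and the order of the constructs in the means (35.1 with PtrHSFB3-1, 142 with PtrMYB092 and 60.7 with GFP) was also that within each replicate number.

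Set directly against PtrMYB092, the members were lower with PtrHSFB3-1 to about the same degree as against GFP. The ratio PtrHSFB3-1/PtrMYB092 had a median of 0.447 and ran from 0.0890 to 0.663, against a median of 0.972 over the 6525 genes. Limma called 7.18% of all genes lower in PtrHSFB3-1 than in PtrMYB092, and 66 of the 105 members. With the replicate block the values were 17.8% and 104 members. The 1 member not called then was Potri.005G220700, which had 86.8, 84.6 and 59.4 in the PtrHSFB3-1 libraries, 85.7, 134 and 140 in the PtrMYB092 libraries and 118, 178 and 174 in the GFP libraries. Its PtrMYB092 replicate 1 was among the PtrHSFB3-1 values. Every PtrHSFB3-1 library was below every PtrMYB092 library in 79 members, which 15.6% of the 6525 genes also were. The limits of the rule bound this ratio too, so these values add no separate evidence, and both comparisons with GFP share the same 3 GFP libraries.

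The paired ratios differed by replicate number. The rule used these ratios through their means and through the limit of 0.8 on each PtrHSFB3-1/GFP ratio. They chose the members, and their pattern by number is given as a description. For PtrHSFB3-1/GFP the median over the members was 0.526 in replicate 1, 0.508 in replicate 2 and 0.329 in replicate 3, against 0.962, 0.933 and 0.880 over the 6525 genes. Replicate 3 gave the lowest of the 3 ratios in 88 members (83.8%, against 51.7% of the 6525 genes), replicate 1 in 15 and replicate 2 in 2. The transcript of PtrHSFB3-1 was also highest in PtrHSFB3-1 replicate 3, and its part in this was not tested. For PtrMYB092/GFP the medians were 0.921, 0.988 and 0.992. In 21 members all 3 PtrHSFB3-1/GFP ratios were at most 0.5.

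**Figure D4:**
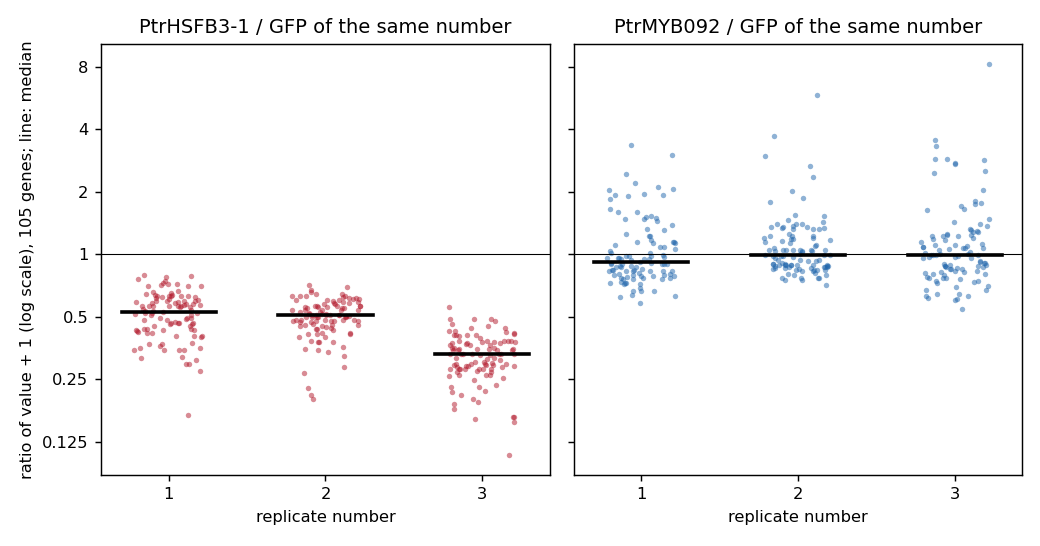
Points are the 105 members, with the ratio of (transcription factor value + 1) to (GFP value + 1) between libraries of the same replicate number on a log y axis and the replicate number on the x axis, for PtrHSFB3-1 on the left and PtrMYB092 on the right. Black lines are medians: 0.526, 0.508 and 0.329 for PtrHSFB3-1, and 0.921, 0.988 and 0.992 for PtrMYB092.

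Replicate 3 weighed on the PtrHSFB3-1 side in the values themselves as well. PtrHSFB3-1 replicate 3 was the lowest of its group in 57 members (54.3%, against 30.6% of the 6525 genes) and the highest in 8 (7.62%, against 25.2%). GFP replicate 3 was the highest of its group in 52 (49.5%, against 38.5%) and PtrMYB092 replicate 3 in 63 (60.0%, against 41.5%). Replicate 1 was the lowest PtrMYB092 library in 67 members (63.8%, against 38.7%) and the lowest GFP library in 65 (61.9%, against 32.0%). Without replicate 3 of all groups the rule gave 48 genes, 36 of them among the 105, and without replicate 1 it gave 177, 89 of them among the 105. The count of members called lower in PtrHSFB3-1 against GFP was 15 without PtrHSFB3-1 replicate 3, 18 without GFP replicate 3, 25 without GFP replicate 2 and 39 without PtrMYB092 replicate 2. The count over all genes tested, 303 with every library, fell as well, to 40, 62, 93 and 161 under the same omissions.

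The members also spread more between libraries of a construct than other genes at the same minimum. The median coefficient of variation over the members was 33.5% with PtrHSFB3-1, 27.2% with PtrMYB092 and 26.0% with GFP, against 18.4%, 19.7% and 20.02% over the 6525 genes. It was at least as large in the 110 genes also at 0.75 or under with PtrMYB092, at 34.2%, 34.1% and 28.5%, so the spread was not particular to the members. In the GFP libraries alone, the ratio of (highest value + 1) to (lowest value + 1) had a median of 1.63 over the members, against 1.45 over the 6525 genes. The largest such ratio was 7.19 in the members and 39.0 in the 6525 genes. GFP replicate 1 was under 0.5 of the mean of GFP replicates 2 and 3 in 16 members (15.2%, against 4.87% of the 6525 genes). A clear case, singled out after its values were seen, was Potri.001G008900 on chromosome 1, with 11.9, 57.7 and 28.7 in the PtrHSFB3-1 libraries, 20.6, 113 and 107 in the PtrMYB092 libraries and 21.4, 134 and 141 in the GFP libraries. Replicate 1 was the lowest with every construct, the groups overlapped, and the standard error of its log2 difference of −1.42 for PtrHSFB3-1 minus GFP was 0.91 without the block and 0.24 with it, and it was called only with it.

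Of the sum of squares of log2(scaled value + 1) over the 9 libraries, the construct took a median of 73.8% in the members and the replicate number 13.9%, against 43.9% and 35.7% over the 6525 genes. The number took more than the construct in 9 members (8.57%, against 44.8%). The large share of the construct follows from the choice of the members.

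The 110 genes that met the same limits for PtrHSFB3-1 and fell to a ratio of 0.75 or under with PtrMYB092 were lowered by PtrHSFB3-1 to a similar degree. Their median PtrHSFB3-1/GFP ratio was 0.429, against 0.449 for the members, and their median PtrMYB092/GFP ratio was 0.592, against 0.969. Their mean GFP value had a median of 43.0, against 34.4. In these genes too, replicate 3 gave the lowest PtrHSFB3-1/GFP ratio in most, 98 of 110.

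By locus name, the members lay on every chromosome but 17, where 0 of 216 genes at the GFP minimum were members. Chromosome 8 had the highest share, 13 of 390 genes (3.33%), followed by chromosome 6 with 13 of 468 (2.78%), chromosome 2 with 12 of 479 (2.51%) and chromosome 3 with 9 of 366 (2.46%). Chromosome 1 had the most members, 14 of 766 genes (1.83%). The lowest shares above 0 were 0.463% on chromosome 16 and 0.568% on unplaced scaffolds. Counts per chromosome were small and no difference between chromosomes was tested.

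**Figure D5:**
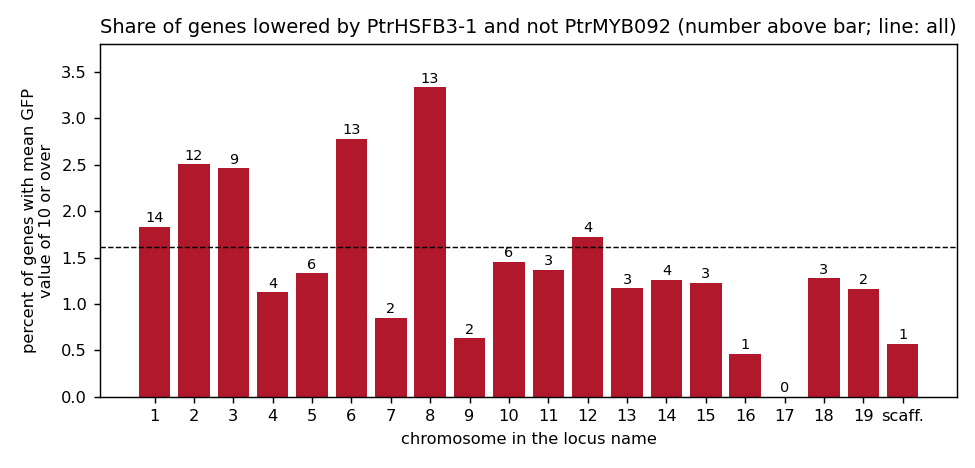
Bars give the members on each chromosome as a percent of the genes there with a mean scaled GFP value of at least 10, with the number of members above each bar and unplaced scaffolds on the right. The dashed line is the share over all 6525 genes (1.61%); chromosome 8 is highest at 3.33% and chromosome 17 has 0 of 216.

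The study's list of genes altered in stems after 3 d of bending, a treatment that makes a tree form tension wood, was read for its locus names only. It held 391 genes and 2 of the 105 members (1.90% of the members and 0.512% of the list), against 66 of the 6525 genes (1.01%). They were Potri.005G133800, given above, and Potri.006G249500 on chromosome 6. Potri.006G249500 had scaled values of 35.7, 10.6 and 6.14 in the PtrHSFB3-1 libraries, 76.4, 47.7 and 43.9 in the PtrMYB092 libraries and 62.3, 34.9 and 35.7 in the GFP libraries. The highest PtrHSFB3-1 library lay within the GFP range by little, and the paired ratios were 0.579, 0.322 and 0.194. Its log2 difference was −1.59 for PtrHSFB3-1 minus GFP, with a standard error of 0.55 without the block and 0.27 with it, and it was called only with it.

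None of the cell wall genes of the primer list was a member, which is no finding. The rule left out the monolignol genes by name, although 16 of them reached the GFP minimum and 0 had met all the limits. The other cell wall genes of the list were under the GFP minimum. Of its 22 monolignol genes 20 could be tested, and limma called 11 of them higher in PtrHSFB3-1 than in GFP (6.46% of all genes tested were) and 18 higher in PtrMYB092 than in GFP (4.1%), with median log2 differences of 1.84 and 4.03, against −0.05 and −0.11 over all genes tested. The primer list was chosen by the study, so its direction is not independent evidence.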

How the data were processed

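RNA-seq was read from 1 table that the authors deposited, with 9 columns of whole numbers labelled as raw counts. Reads had been mapped with Bowtie 2 according to the study and TopHat is named in the submitters' processing notes. The tool used for counting is not given in the sources used here. At low values, libraries differed by less than random counting allows: where the values of a gene in a pair of libraries summed to 2, the variance of their difference was 0.0503 to 0.383 of that of random draws over 36 pairs. The deposited values were therefore treated as a score, not as read counts, their depth is unknown, and no counting interval is given. Columns summed to between 428358 and 495579.

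Columns were divided by their median ratio to the geometric mean over the 18166 genes above 0 in all 9. limma 3.58.1 in R 4.3.3 was run with trend on log2(scaled value + 1) over the 7511 genes whose scaled value reached 10 in 3 or more libraries, as fixed for values that do not scatter as counts. A log2 difference understates the change of low genes because 1 is added. Libraries of the same replicate number deviated together from their group means (correlation across genes of 0.517 to 0.863 in 9 pairs, against −0.702 to 0.266 in the 18 others), so the numbers were taken to pair the libraries, and values with the number as a block are given where they change a call or a count.

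The members and lists were chosen with earlier results of these data known. No locus name matched the reference table (0 matched), so lists by function, promoter motifs and sequences were not made. Named by rule were the members in the study's tables and 2 others (Potri.002G155400 and Potri.005G195700); further names were chosen after values were seen. Other scalings, pseudocounts, filters, thresholds, groups of libraries and the omission of each library were tried.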

Additional observations from a re-analysis of the deposited data

How the results depend on the processing

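The rule gave 105 members; scaling to column totals gave 246 and a pseudocount of 5 gave 48, of which 100 and 46 were among the 105. Leaving out 1 replicate number of all groups gave 48 to 177. TMM scaling gave 133 and, among the settings added after the data were seen, taking the PtrMYB092/GFP ratio from replicate 1 alone gave 99 and a GFP minimum of 5 gave 130. Scaling shifted all genes: the median log2 PtrHSFB3-1/GFP ratio over the 6525 genes was −0.13 as used, −0.18 with TMM and −0.33 with column totals. The PtrHSFB3-1/GFP ratios of the 105 members stayed under 0.480 and 0.440 in those scalings, but this shift lowers them. Their lowest PtrMYB092/GFP ratio fell to 0.738 and 0.737, under the limit, and 100 of the 105 stayed members in each. Potri.005G195700 was among those lost, with log2 differences of −0.439 and −0.441 for PtrMYB092 minus GFP.

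For genes called lower in PtrHSFB3-1 against GFP (303, with 61 members), the counts were 458 genes with TMM scaling and 858 with column totals. With no filter on low values they were 282 genes and 39 members, and with only the 6 libraries compared 126 genes and 37 members. At an adjusted p under 0.01 the counts were 32 and 11, and at a fold change under 0.5 there were 123 genes. For PtrMYB092 against GFP (308 genes higher with 2 members, 35 lower with 0 members), they were 782 higher and 57 lower with no filter, 18 lower with 6 libraries, 201 higher with 1 member and 3 lower at an adjusted p under 0.01, and 17 lower at a fold change under 0.5. For PtrHSFB3-1 against PtrMYB092 (539 lower with 66 members), they were 1092 genes with no filter, 200 and 21 members at an adjusted p under 0.01, and 341 genes at a fold change under 0.5.

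Blocking on the replicate number, 1597 genes and 105 members were lower in PtrHSFB3-1 against GFP. In PtrMYB092 against GFP, 430 genes and 8 members were higher and 736 genes and 0 members lower. In PtrHSFB3-1 against PtrMYB092, 1336 genes and 104 members were lower. Without PtrMYB092 replicates 2 and 3, whose description label names the other factor, the same counts were 129 and 36 (PtrHSFB3-1 against GFP), 89 higher with 0 members and 1 lower (PtrMYB092 against GFP), and 87 and 7 (PtrHSFB3-1 against PtrMYB092), from 7 libraries.

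Leaving out each library in turn gave 40 to 283 genes and 15 to 61 members lower in PtrHSFB3-1 against GFP, 211 to 333 genes and 1 to 3 members higher and 3 to 53 genes lower in PtrMYB092 against GFP, and 233 to 537 genes and 28 to 64 members lower in PtrHSFB3-1 against PtrMYB092. The lowest counts came without PtrHSFB3-1 replicate 3 for the genes called lower with PtrHSFB3-1. No member was called lower in PtrMYB092 against GFP under any of these settings, and no named member changed direction with a call. The rule had removed genes with low PtrMYB092/GFP ratios, so the lack of lower calls was largely fixed in advance and is no finding. The cause of the shifts in the counts was not tested. Depth is unknown, so no counting error can be given for members near the GFP minimum.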

Other observations

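Potri.001G461900, the member with the lowest mean PtrHSFB3-1 value, averaged 1.70 scaled units with PtrHSFB3-1, against 10.2 with GFP, and its ratio of 0.273 depends on the 1 added to each value. It was singled out after its values were seen.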
